A study of Mus musculus with 16 samples.

Results

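The 3 genes that encode the isoforms of heterochromatin protein 1 (HP1) were followed through the memory CD4+ T cell transcriptomes of HP1α and HP1γ knockout mice. They were Cbx1 (ENSMUSG00000018666), which encodes HP1β, Cbx3 (ENSMUSG00000029836), which encodes HP1γ, and Cbx5 (ENSMUSG00000009575), which encodes HP1α. They were chosen by symbol, as the complete set of mouse HP1 isoform genes, from 56748 genes listed in the tables, of which 29328 had a count in at least 1 sample. The questions were how the 3 transcripts compare in dose, how much of each targeted transcript was left in its knockout, and whether the other isoform genes were higher when 1 was lost.

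RNA-Seq was performed on 16 samples of memory T cells, gated as CD4+CD25low/-CD62L-CD44high, sorted from the spleen of male mice of 6 to 12 weeks on a mixed 129/Sv and C57BL/6 background, with 4 samples in each of 4 groups. In the HP1α line, a floxed Hp1a allele had been excised with CMV-cre, which acts in the germline and in every tissue. HP1α KO mice (Hp1a-/-) and their WT littermates (Hp1a+/+) came from crosses of heterozygotes. In the HP1γ line, every mouse was homozygous for a floxed Hp1g allele, WT littermates included. HP1γ KO mice also carried Cd4-cre, which is active in T cells from the thymus onwards, so that effects of Cre itself and of HP1γ deficiency cannot be told apart in this line. The exons flanked by LoxP sites were not given in the sources used here. A value for the whole gene therefore measures transcript from any exon and not intact mRNA or protein. For naive CD4+ T cells, the study reported that HP1α was completely lost in HP1α KO mice. It reported that HP1γ was almost completely lost in HP1γ KO mice, and that the other isoforms did not compensate in either line. Protein in memory cells was not measured here.

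HP1 proteins read the histone mark H3K9me3. The chromodomain docks on the methylated histone tail. A related fold, the chromoshadow domain, joins HP1 molecules in pairs and offers a surface to partner proteins. HP1α and HP1β are concentrated in pericentromeric heterochromatin, while HP1γ is also found in euchromatin and along transcribed genes. SUV39H1 and SUV39H2 deposit the mark, and bound HP1 in turn recruits methyltransferases and co-repressors such as TRIM28, and such domains of chromatin are compact and silent. In CD4+ T cells, this system takes part in the stable silencing of genes of alternative T helper lineages.

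All 3 genes are protein-coding genes on separate chromosomes of GRCm39. Cbx1 lies on the plus strand at chr11:96679933-96700423, Cbx3 on the plus strand at chr6:51447082-51460691 and Cbx5 on the minus strand at chr15:103099505-103148419. Their coding sequences have 555, 549 and 573 nt without the stop codon, in 4, 5 and 4 coding exons of the canonical transcripts. In an alignment, Cbx1 and Cbx3 were identical at 361 of 519 aligned coding bases (69.6%), Cbx1 and Cbx5 at 67.0% and Cbx3 and Cbx5 at 64.1%. These sequences are shown because the reads of the 3 genes can be assigned to one gene or another only where the genes differ. The following 60 nt of coding exons were the most conserved stretch of the alignment, and capitals mark the 19 positions at which the 3 genes did not all have the same base. They come from coding exon sequence of GRCm39, at chr11:96691688-96691747 (plus strand, exon 2), chr6:51452268-51452327 (plus strand, exon 3) and chr15:103121525-103121584 (minus strand, exon 2).
Cbx1: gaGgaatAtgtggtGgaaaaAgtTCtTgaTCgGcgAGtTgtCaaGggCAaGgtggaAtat
Cbx3: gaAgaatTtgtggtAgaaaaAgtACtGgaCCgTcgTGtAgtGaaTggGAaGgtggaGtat
Cbx5: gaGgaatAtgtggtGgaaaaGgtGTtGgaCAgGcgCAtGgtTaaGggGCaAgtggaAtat

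The least conserved stretch of the same length, in which 33 positions differed, lies at chr11:96692278-96692337 (plus strand, exon 3), chr6:51455441-51455500 (plus strand, exon 4) and chr15:103114023-103114082 (minus strand, exon 3).
Cbx1: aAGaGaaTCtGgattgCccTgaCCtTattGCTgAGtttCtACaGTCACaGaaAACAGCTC
Cbx3: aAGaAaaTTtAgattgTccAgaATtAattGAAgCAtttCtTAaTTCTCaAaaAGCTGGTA
Cbx5: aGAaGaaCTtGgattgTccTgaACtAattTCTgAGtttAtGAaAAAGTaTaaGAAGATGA

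Even in the most conserved stretch, differences were spread along the whole window. The longest run shared by the canonical transcripts was 11 nt between Cbx1 and Cbx3 and 20 nt between Cbx5 and either of the others, far below the length of the reads. A read of ordinary length in any of the 3 genes therefore spans bases that differ from the others.

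Reads of Cbx3 are harder to separate from those of its processed copies. Cbx3-ps6 was identical to Cbx3 at 548 of 549 coding bases, with an identical run of 389 nt. The 1 difference is in capitals at the end of the stretches below, from chr6:51458704-51458763 (plus strand, exon 5 of Cbx3) and chr14:74192602-74192661 (minus strand, Cbx3-ps6).
Cbx3: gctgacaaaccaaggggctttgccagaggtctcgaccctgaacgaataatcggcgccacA
Cbx3-ps6: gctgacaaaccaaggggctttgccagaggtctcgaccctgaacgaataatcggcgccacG

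The estimated count of Cbx3 was not a whole number in 16 of 16 samples, against 4 of 16 for Cbx1 and 1 of 16 for Cbx5. The table listed 8 annotated Cbx3 copies, whose counts together came to between 0.651% and 1.54% of those of Cbx3. A search with the longest transcript of Cbx1 and of Cbx5 found no other gene that shared at least 150 nt at 98% identity. For Cbx3-ps6 the same search found only 170 nt shared with Cbx3, so it can miss shared sequence. The counts given to the copies were thus small beside those of Cbx3, although how reads were split between Cbx3 and Cbx3-ps6 is uncertain.

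The samples were of similar depth, between 26694045 and 40199637 estimated counts. As a check of the sort, the 5 CD4 T cell markers summed to 5368 to 6278 TPM, that is transcripts scaled to a fixed total and corrected for length and the 3 memory markers (Cd44, Itgb1 and S100a4) to 1126 to 1634 TPM. The 5 B cell markers summed to 5.44 to 19.1 TPM, the 2 CD8 T cell markers to 5.11 to 18.05 TPM, the 4 myeloid markers to 33.96 to 125 TPM and the 3 NK cell markers to 24.01 to 51.3 TPM. The 3 naive T cell markers summed to 236 to 438 TPM and the 3 Treg markers to 85.8 to 174 TPM. The 2 globin genes ranged most, from 32.5 to 2390 TPM. No marker was at 0 in all samples, and for every list the ranges of KO and WT samples overlapped in both lines. In bulk RNA, fewer cells of a type and less RNA per cell cannot be told apart. The labels do not state that the samples of a group came from separate animals, so p-values measure only the spread between these samples.

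By TPM, Cbx3 was the most abundant isoform transcript, followed by Cbx1 and Cbx5, in 16 of 16 samples. Because TPM corrects for length, levels can be compared between genes. Over all samples Cbx3 averaged 71.8 TPM, Cbx1 25.2 TPM and Cbx5 7.32 TPM. Among 13202 genes with a mean level of 1 TPM or more, 82.4% were below Cbx3, 58.6% below Cbx1 and 33.0% below Cbx5. The order held in the knockouts too. Cbx3 exceeded Cbx1 by 1.90- to 3.89-fold and Cbx1 exceeded Cbx5 by 2.50- to 5.98-fold within samples. The order of Cbx1 and Cbx5 rests on the length correction. In CPM, which are scaled to library size only, mean Cbx5 was above Cbx1 in WT of the HP1α line (40.6 and 30.9). The same held in HP1γ KO (25.1 and 21.1) and their WT littermates (31.3 and 23.1). In HP1α KO it was below (27.3 and 29.5).

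**Figure D1:**
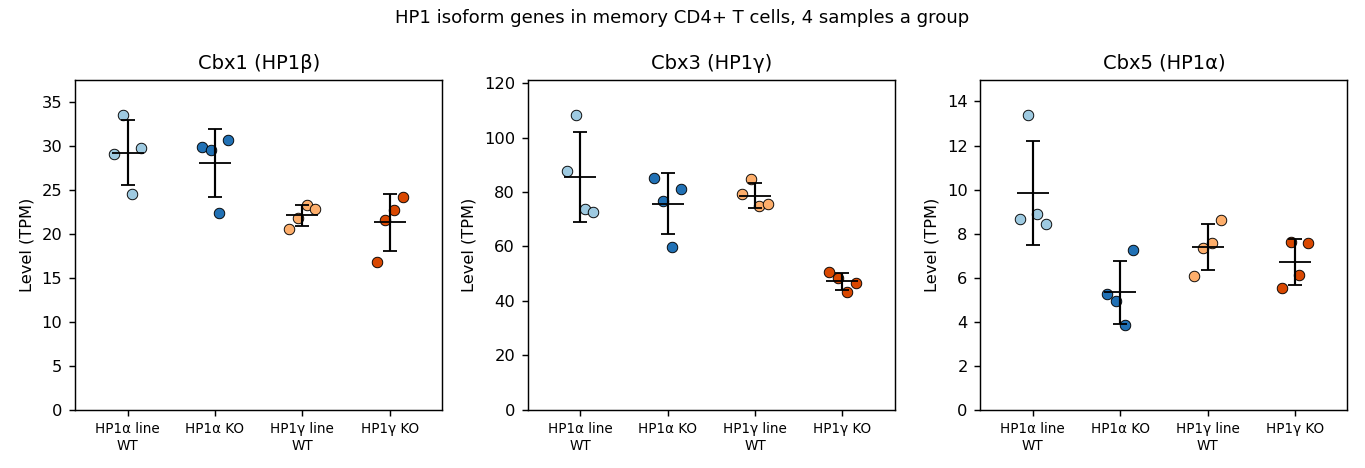
Level of Cbx1, Cbx3 and Cbx5 in TPM (linear axes from 0, 1 panel a gene) in 16 memory CD4+ T cell samples. Points are samples, and the bar and whiskers are the mean and SD of 4 samples. Cbx3 was at 43.2 to 50.6 TPM in HP1γ KO samples and at 74.8 TPM or more in their WT littermates, and Cbx5 was at or below 7.25 TPM in HP1α KO samples and at or above 8.42 TPM in theirs.

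In the HP1α line, Cbx5 transcript was lower in HP1α KO cells but far from absent. It was at 5.27, 4.94, 3.86 and 7.25 TPM in the 4 HP1α KO samples and at 8.66, 13.4, 8.89 and 8.42 TPM in the 4 WT samples. The groups did not overlap, with replicate 4 the highest of the HP1α KO samples and replicate 2 far above the other WT samples. The mean fell from 9.84 ± 2.37 to 5.33 ± 1.42 TPM (SD, n = 4), which left 54.2% of the WT level (two-sided exact permutation test, p = 0.0286, the smallest that 4 samples against 4 allow).

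By estimated counts, the residual Cbx5 transcript was higher. Cbx5 had 783 to 1147 counts in HP1α KO samples and 972 to 2145 in WT samples. In CPM, counts scaled to library size, the HP1α KO samples were at 29.0, 27.9, 23.0 and 29.2 and the WT samples at 38.1, 54.6, 35.6 and 33.9, again without overlap. The log2 fold change was -0.58 (SE 0.145), that is 67.1% of WT with a 95% interval of 53.7% to 83.9%. Of 14881 genes tested with edgeR's quasi-likelihood test, 0% were called at a Benjamini-Hochberg adjusted p under 0.05, and Cbx5 was not called either (unadjusted p = 0.00257, adjusted p = 0.946, edgeR). At an unadjusted p under 0.05 the test had 635 genes, and DESeq2 called 5 genes. Without WT replicate 2, the log2 fold change of Cbx5 was -0.40.

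The other 2 isoform genes were not called higher in HP1α KO cells. Cbx1 was at 29.9, 29.5, 22.3 and 30.7 TPM in HP1α KO samples and at 29.1, 33.5, 24.6 and 29.7 TPM in WT samples. These ranges overlapped, and replicate 3 was low in both groups. The log2 fold change of Cbx1 was -0.07 (SE 0.114, adjusted p = 0.965 with edgeR), and the 95% interval ran from 80.0% to 113% of WT. Cbx3 was at 85.3, 76.6, 59.8 and 81.2 TPM in HP1α KO samples and at 87.6, 108, 73.8 and 72.8 TPM in WT samples. These ranges overlapped as well, at a log2 fold change of -0.14 (SE 0.122, adjusted p = 0.946 with edgeR). Without WT replicate 2 the log2 fold change of Cbx3 was -0.0093. The interval for Cbx3 ran from 75.0% to 109% of WT. The intervals do not exclude an increase of either gene up to these upper bounds.

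In the HP1γ line, Cbx3 was lower in HP1γ KO cells, and the difference was called. It was at 50.6, 48.4, 43.2 and 46.7 TPM in HP1γ KO samples, against 79.4, 84.8, 74.8 and 75.5 TPM in the 4 WT samples. The spread within each group was small beside the gap between them. The mean fell from 78.6 ± 4.59 to 47.2 ± 3.11 TPM (SD, n = 4), which left 60.1% of the WT level (two-sided exact permutation test, p = 0.0286, the smallest possible). The log2 fold change was -0.82 (SE 0.0790, adjusted p = 0.00150 with edgeR), or 56.6% of WT with a 95% interval of 50.1% to 63.9%. Among 14975 genes tested, 0.0735% were called lower, 0.254% higher and 0.327% in either direction. Of the 3 isoform genes, only Cbx3 was called.

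Cbx3-ps6, the near-identical copy, had 5.41 to 13.4 counts in HP1γ KO samples and 22.3 to 28.4 in their WT littermates. The ranges did not overlap. Its log2 fold change was -1.06, and it was not called (adjusted p = 0.252 with edgeR). Since Cbx3-ps6 was nearly identical to the coding sequence of Cbx3, these counts may come from either gene.

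Neither Cbx1 nor Cbx5 was called higher in HP1γ KO cells. Cbx1 was at 16.8, 21.6, 22.8 and 24.2 TPM in HP1γ KO samples and at 20.5, 21.8, 23.3 and 22.8 TPM in WT samples. Apart from replicate 1, the HP1γ KO samples lay within or just above the WT range. The log2 fold change of Cbx1 was -0.11 (SE 0.117, adjusted p = 0.752 with edgeR), with a 95% interval from 77.7% to 111% of WT. Cbx5 was at 5.54, 7.63, 6.14 and 7.57 TPM in HP1γ KO samples and at 6.05, 7.34, 7.56 and 8.61 TPM in WT samples. The ranges overlapped, the log2 fold change was -0.29 (SE 0.147), and Cbx5 was not called (unadjusted p = 0.0727, adjusted p = 0.465, edgeR). Its interval ran from 65.0% to 102% of WT, so that most of it lay below the WT level. The log2 fold change was -0.12 with limma on log2(TPM + 1) and -0.20 with counts rescaled to a constant length per gene (length-scaled counts), and Cbx5 was not called in either. DESeq2 with the replicate number as a block called it (-0.31, adjusted p = 0.0329).

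**Figure D2:**
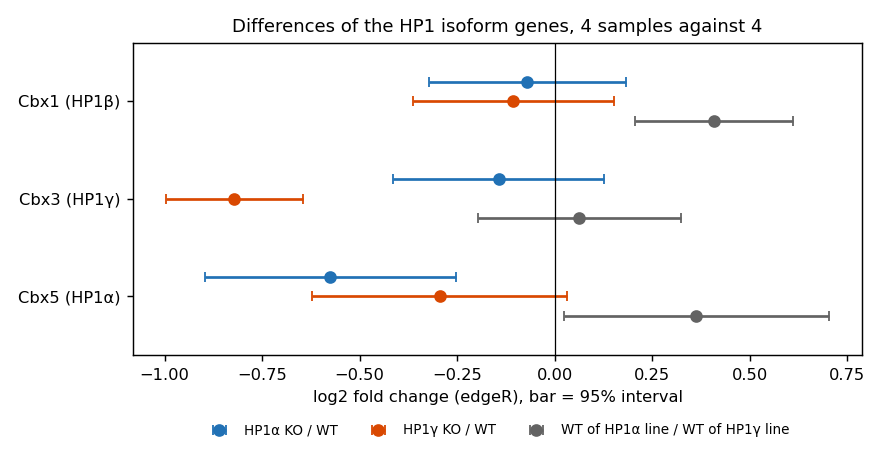
Log2 fold change of Cbx1, Cbx3 and Cbx5 (points) with the 95% interval (whiskers) in HP1α KO against WT, HP1γ KO against WT, and WT of the HP1α line against WT of the HP1γ line, 4 samples against 4 in edgeR. The interval lies below 0 for Cbx3 in HP1γ KO and for Cbx5 in HP1α KO, and above 0 for Cbx1 and Cbx5 between the WT groups, while no KO interval lies above 0.

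The KO effect on the 3 genes was compared between the lines in 1 fit of all 16 samples. For Cbx3 the effect was 0.69 higher on the log2 scale in the HP1α line than in the HP1γ line (SE 0.155). The groups behind it are those given above, with Cbx3 at 88.4% of WT by TPM in HP1α KO cells and 60.1% in HP1γ KO cells. The difference was not called over 15776 genes (unadjusted p = 0.000403, adjusted p = 0.187, edgeR), of which 0.0507% were called (0.00634% with a higher and 0.0444% with a lower effect in the HP1α line). DESeq2 called it, at an adjusted p of 0.00957. For Cbx5 the effect was 0.27 lower in the HP1α line (adjusted p = 0.750 with edgeR), so that the effect on Cbx5 was not shown to differ between the knockouts. The size of this difference depended on the setting. It was -0.66 with limma on log2(TPM + 1), -0.74 with limma on log2(TPM + 0.1) and -0.69 with length-scaled counts (adjusted p = 0.470, 0.470 and 0.447), and -0.10 with edgeR without WT replicate 2 of the HP1α line. The effects on Cbx1 differed by 0.04 (SE 0.171, adjusted p = 0.964 with edgeR).

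Added together, the 3 genes gave 109 ± 16.02 TPM in HP1α KO samples and 125 ± 21.8 TPM in their WT littermates (SD, n = 4). In the HP1γ line the sum was 75.3 ± 3.22 TPM in HP1γ KO samples and 108 ± 3.93 TPM in WT samples, without overlap. No test was run on the sum. In the HP1γ line, the difference in the sum (-32.9 TPM) was close to that of Cbx3 alone (-31.4 ± 2.77 TPM, SE). Cbx1 and Cbx5 differed by -0.777 ± 1.73 and -0.671 ± 0.740 TPM, each by less than its SE. This holds for TPM. In CPM, the sum was 93.2 in HP1γ KO and 139 in WT samples, and Cbx3 was at 47.0 and 84.3. Cbx1 was at 21.1 and 23.1 CPM and Cbx5 at 25.1 and 31.3 CPM in the same groups. In the HP1α line, Cbx5 differed by -4.51 ± 1.38 TPM, Cbx1 by -1.12 ± 2.67 TPM and Cbx3 by -9.90 ± 10.0 TPM. Here the spread of Cbx3 between samples was larger than the whole level of Cbx5.

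As shares of the sum, Cbx3 made up 72.7 ± 2.30% in WT samples of the HP1γ line and 62.8 ± 4.58% in HP1γ KO samples, where Cbx1 went from 20.5 ± 1.44% to 28.3 ± 3.89% and Cbx5 from 6.84 ± 1.00% to 8.90 ± 1.04%. These larger shares of Cbx1 and Cbx5 arose from a smaller sum, since neither gene had a higher mean TPM. In the HP1α line, Cbx5 made up 7.85 ± 0.762% in WT and 4.85 ± 0.827% in HP1α KO samples, while Cbx3 stood at 68.5 ± 1.99% and 69.4 ± 1.10% and Cbx1 at 23.6 ± 2.22% and 25.8 ± 0.734%. Cbx3 thus remained the major isoform transcript in both knockouts, its own included.

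**Figure D3:**
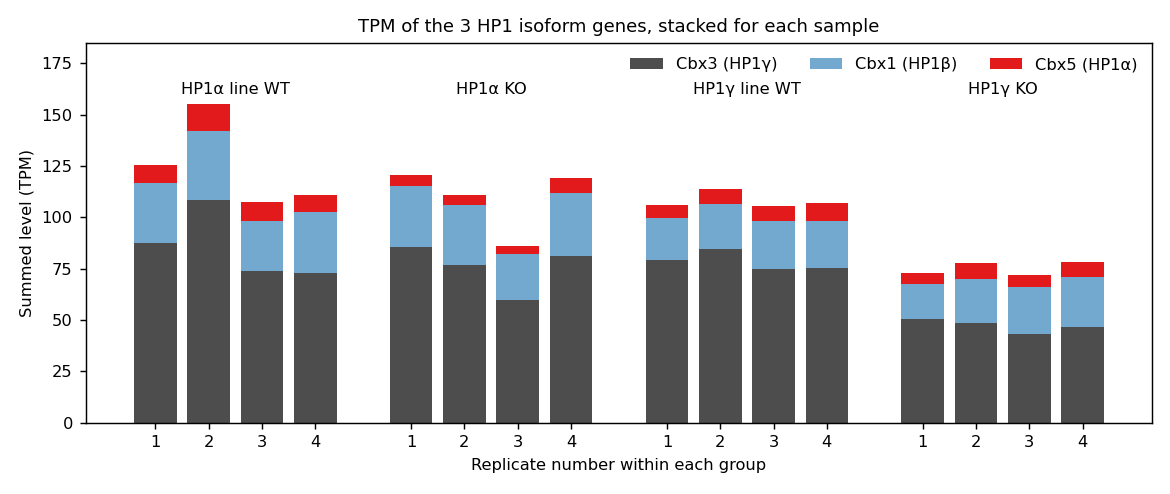
Stacked bars give the TPM of Cbx3, Cbx1 and Cbx5 in each of 16 samples, by group and replicate number, on a linear axis from 0. The 4 HP1γ KO bars reach 72.1 to 78.5 TPM, below the lowest of all other bars (86.0 TPM, HP1α KO replicate 3), and WT replicate 2 of the HP1α line reaches 155 TPM.

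The WT groups of the 2 lines differed in Cbx1. Cbx1 was at 24.6 to 33.5 TPM in WT samples of the HP1α line and at 20.5 to 23.3 TPM in WT samples of the HP1γ line, without overlap, and averaged 29.2 ± 3.67 and 22.1 ± 1.23 TPM (SD, n = 4). The log2 fold change was 0.41 (SE 0.0918, adjusted p = 0.0199 with edgeR), and by TPM the HP1α line stood at 132% of the HP1γ line (two-sided exact permutation test, p = 0.0286). This comparison called 12.8% of 14804 genes in all with 4.55% higher and 8.25% lower in the HP1α line, so that a call was common among all genes. Cbx5 was 0.36 higher on the log2 scale in WT samples of the HP1α line and was not called (unadjusted p = 0.0388, adjusted p = 0.143, edgeR). Without WT replicate 2 of the HP1α line it was 0.20 higher (adjusted p = 0.325 with edgeR). Cbx3 differed by 0.06 (adjusted p = 0.760 with edgeR). The lines were kept apart in all KO comparisons, because line and any batch of processing cannot be told apart here.

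Both HP1α and HP1γ KO samples had Cbx1 levels close to the WT of their own line. HP1α KO samples averaged 28.1 ± 3.87 TPM and HP1γ KO samples 21.3 ± 3.23 TPM (SD, n = 4), on the same sides as their WT littermates. The WT groups differed by 7.12 ± 1.94 TPM (SE), and HP1α KO and HP1γ KO differed from their own WT littermates by -1.12 ± 2.67 and -0.777 ± 1.73 TPM.

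The number of counts that stood for 1 TPM unit was examined next, since Salmon assigns reads to transcripts and this ratio rises with the length of the transcripts assigned. It was chosen after the counts and the TPM of Cbx5 were seen to give different residual levels. Cbx5 has 24 annotated transcripts of 376 to 9609 nt (median 9314 nt), a far wider range than Cbx1 (68 transcripts, 814 to 2397 nt) or Cbx3 (20 transcripts, 308 to 2926 nt). Relative to the median gene of each sample, counts per TPM of Cbx5 were 4.27, 4.44, 4.48 and 3.19 in HP1α KO samples and 3.41, 3.17, 2.997 and 3.12 in WT samples. In 3 of 4 HP1α KO samples the ratio was above every WT sample, and replicate 4 lay among them. The difference did not pass the test (two-sided exact permutation test, p = 0.0571).

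For Cbx5 in the HP1γ line, counts per TPM were 2.44 to 3.76 in HP1γ KO and 2.79 to 3.62 in WT samples. Cbx1 held between 0.767 and 0.841 and Cbx3 between 0.753 and 0.868 over all 16 samples. Relative to the median gene, counts and TPM of the latter 2 genes thus moved nearly together. A shift common to all genes of a sample does not show in this ratio. In HP1γ KO cells, Cbx3 was at 60.1% of WT by TPM and 55.7% by CPM, and Cbx1 at 96.5% and 91.5%. The SD of the log2 ratio of Cbx5 over the samples exceeded that of 99.1% of 8669 genes with more than 5 TPM in every sample. With counts rescaled to a constant length per gene, the log2 fold change of Cbx5 in HP1α KO cells was -0.90 in place of -0.58, and it was again not called (adjusted p = 0.984 with edgeR).

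**Figure D4:**
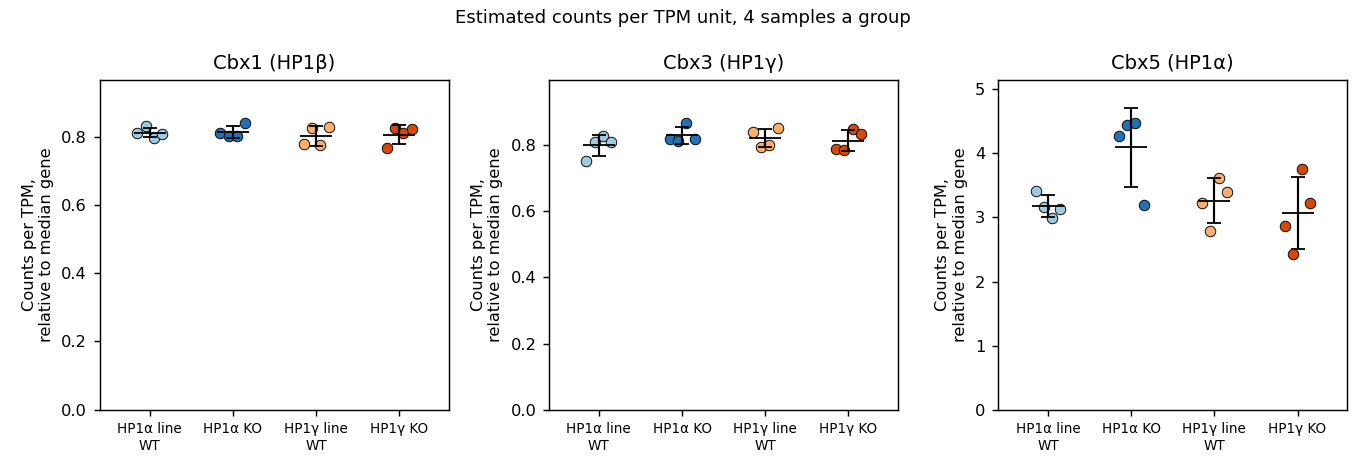
Estimated counts per TPM unit of each gene, relative to the median gene of the same sample (linear axes from 0), for Cbx1, Cbx3 and Cbx5. Points are samples, bar and whiskers are mean and SD of 4 samples. Cbx1 and Cbx3 stay between 0.753 and 0.868 in all groups, while Cbx5 is above 4.2 in 3 of 4 HP1α KO samples and between 2.997 and 3.41 in their WT littermates.

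The nearest protein-coding genes on either side of each isoform gene were measured. Those of Cbx5 and Cbx3 are neighbours of the allele excised in the HP1α and the HP1γ line, while Cbx1 was excised in neither. Cbx5 and Hnrnpa1, which encodes an abundant RNA-binding splicing factor, are annotated head to head on opposite strands with an overlap of 81 bp. Hnrnpa1 was at 485 TPM in HP1α KO and 515 TPM in WT samples (log2 fold change -0.09, adjusted p = 0.946 with edgeR). Cbx3 and Hnrnpa2b1, which encodes a related factor, overlap head to head by 968 bp. The libraries were stranded per the labels, but whether strand was used in counting was not given in the sources used here, so reads in these overlaps may have been assigned to either gene. Hnrnpa2b1 was at 531 TPM in HP1γ KO and 538 TPM in WT samples (log2 fold change -0.08, adjusted p = 0.626 with edgeR). These partners of the targeted genes were more abundant than the targeted genes themselves and were not called.

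On the other sides, Smug1, a DNA repair glycosylase, lies 20617 bp from Cbx5 and had a log2 fold change of -0.0039 in HP1α KO cells. Snx10, a sorting nexin, lies 25245 bp from Cbx3 and had a log2 fold change of -0.03 in HP1γ KO cells. Cbx1 is flanked by Snx11 at 11382 bp and Nfe2l1 at 5343 bp. Over the 6 neighbours, log2 fold changes ran from -0.11 to 0.09 in HP1α KO and from -0.12 to -0.0034 in HP1γ KO cells, and 0 of 6 were called in either line. At an unadjusted p under 0.05 edgeR had 0 of 6 in either line, and DESeq2 called 0 of 6. Over all genes tested, edgeR had 4.27% at an unadjusted p under 0.05 in HP1α KO cells (635 of 14881) and 11.9% in HP1γ KO cells (1784 of 14975).

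Of 5 genes for H3K9 methyltransferases, 0 were called in either knockout. Their median log2 fold change was -0.02 in HP1α KO and -0.0054 in HP1γ KO cells, beside 0.0026 and 0.00050 over all genes tested. Ehmt2, which encodes G9a, was the most abundant, at 183 TPM in HP1α KO and 175 TPM in WT samples. Its log2 fold change of 0.06 had the smallest p of the list in that line (unadjusted p = 0.248, edgeR). In HP1γ KO cells the smallest p was that of Ehmt1, the partner of G9a, with a log2 fold change of 0.14 (unadjusted p = 0.0427, adjusted p = 0.402, edgeR). By counts, the 95% interval of Ehmt1 ran from 100.4% to 121% of WT. In TPM the gap was wider, with Ehmt1 at 41.1 ± 2.39 in HP1γ KO and at 32.04 ± 1.46 in WT samples (SD, n = 4). The cause of this difference between counts and TPM was not tested. Suv39h2 was at 5.43 ± 0.609 TPM in HP1γ KO and 6.26 ± 0.722 TPM in WT samples. Its log2 fold change was -0.26 (adjusted p = 0.473 with edgeR), with a 95% interval from 68.5% to 102% of WT. Suv39h1 was at 15.9 and 16.2 TPM in HP1α KO and WT samples and at 16.9 and 15.96 TPM in HP1γ KO and WT samples. It was thus below Cbx3 and above Cbx5 in level in each group. At an unadjusted p under 0.05 edgeR had 0 of 5 in HP1α KO and 1 of 5 in HP1γ KO cells, beside 4.27% and 11.9% of all genes, and DESeq2 called 0 of 5 in either line.

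Of 10 genes for HP1-binding and associated proteins, 0 were called in either knockout, with median log2 fold changes of 0.0054 in HP1α KO and 0.03 in HP1γ KO cells. Trim28, the co-repressor that links KRAB zinc finger proteins to HP1, was at 199 and 208 TPM in HP1α KO and WT samples and at 207 and 198 TPM in HP1γ KO and WT samples. The smallest p in HP1α KO cells was that of Adnp, a zinc finger protein of the ChAHP complex, at a log2 fold change of 0.13 (unadjusted p = 0.162, edgeR). In HP1γ KO cells it was that of Pogz, which binds the chromoshadow domain, at 0.15 (unadjusted p = 0.0306, adjusted p = 0.384, edgeR). At an unadjusted p under 0.05 edgeR had 0 of 10 and 1 of 10, beside 4.27% and 11.9% of all genes, and DESeq2 called 0 of 10 in either line.

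The 5 other chromobox genes, whose products sit in Polycomb repressive complex 1 and read H3K27me3, were measured as relatives of the HP1 genes. In both knockouts 0 of 5 were called, with median log2 fold changes of -0.05 in HP1α KO and -0.02 in HP1γ KO cells. Cbx7 had the smallest p in both lines. It was at 174 and 158 TPM in HP1α KO and WT samples (log2 fold change 0.11, unadjusted p = 0.121, edgeR) and at 144 and 126 TPM in HP1γ KO and WT samples (log2 fold change 0.21, unadjusted p = 0.109, edgeR). At an unadjusted p under 0.05 edgeR had 0 of 5 in either line, beside 4.27% and 11.9% of all genes, and DESeq2 called 0 of 5. Cbx7 was more abundant than Cbx3 in the mean of every group.

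Genes of the cell cycle were followed as a measure of proliferation in the samples. Of 17 genes, 0 were called in either line, and 17 of 17 log2 fold changes were below 0 in HP1α KO and again in HP1γ KO cells, with the size factors of DESeq2 as well. The medians were -0.31 and -0.18, beside 0.0026 and 0.00050 over all genes tested. In mean TPM, the direction was not uniform. Mcm3 was at 40.1 TPM in HP1α KO and 38.4 TPM in WT samples. In HP1γ KO and WT samples, Mcm2 was at 44.5 and 41.1 TPM and Mcm4 at 59.8 and 57.6 TPM. Ccnb1 was at 5.81 and 5.43 TPM there, and Bub1 at 2.013 and 1.997 TPM. At an unadjusted p under 0.05 edgeR had 1 of 17 and 6 of 17, beside 4.27% and 11.9% of all genes, and DESeq2 called 0 of 17 in either line. The smallest p in HP1α KO cells was that of Birc5, which encodes survivin (log2 fold change -0.49, unadjusted p = 0.0310, adjusted p = 0.946, edgeR). In HP1γ KO cells it was that of Ccna2, which encodes cyclin A2 (log2 fold change -0.43, unadjusted p = 0.0306, adjusted p = 0.384, edgeR). The summed CPM of the list was 869 to 1091 in HP1α KO and 942 to 1264 in their WT littermates, and 964 to 1056 in HP1γ KO and 1076 to 1301 in theirs. The first pair of ranges overlapped and the second did not. The part of this list in the differences of Cbx5 and Cbx3 was not tested.

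**Figure D5:**
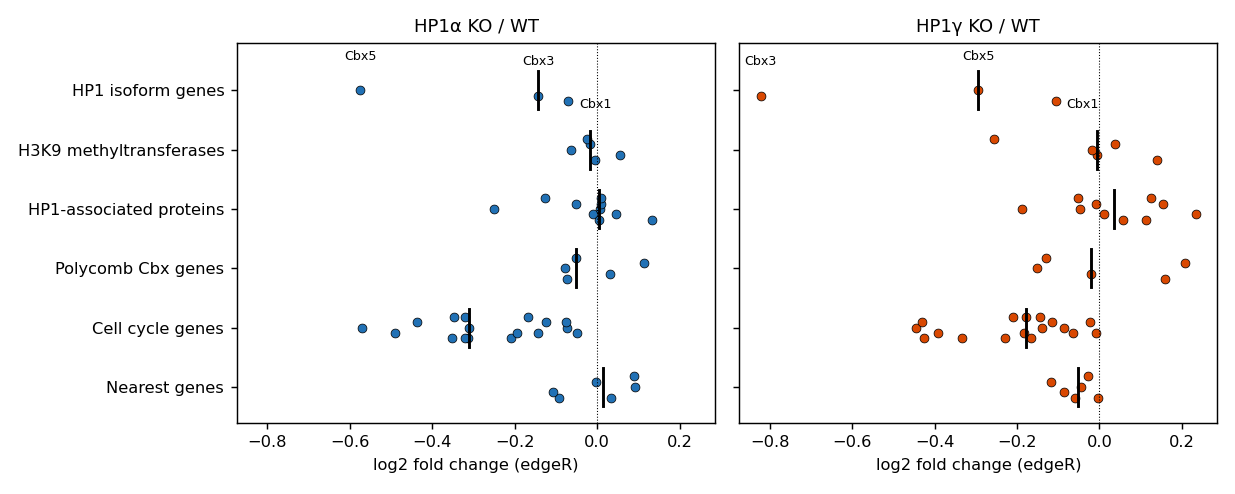
Log2 fold change of each member (points) of 6 gene lists in HP1α KO against WT (left) and HP1γ KO against WT (right), 4 samples against 4 in edgeR, with the median of each list as a vertical bar. Cbx5 at -0.58 (left) and Cbx3 at -0.82 (right) stand at the left end of their panels, with Bub1 at -0.57 close to Cbx5. All 17 cell cycle genes lie below 0 in both panels, and the medians of the other chromatin lists lie between -0.05 and 0.03.

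Variation between samples of the same group was described last, by the correlation of log2 CPM after each group mean was subtracted. Over the 16 samples, Cbx1 and Cbx5 had a Pearson r of 0.76, Cbx1 and Cbx3 of 0.42 and Cbx3 and Cbx5 of 0.40. These values describe 1 set of libraries that share depth and preparation, and they carry no test. Of 8119 other genes with a mean level of 10 TPM or more (8120 for Cbx5), those most like Cbx1 included Nckap1l (r = 0.97), Cd160 (0.93), Fam168a (0.92) and Pank2 (0.91). Those most like Cbx3 were Sucla2 (r = 0.94), Appl1 (0.93), Ube2v2 (0.92), Orc4 (0.91) and Ndfip1 (0.90). Those most like Cbx5 were Rcbtb1 (r = 0.95), Ptgr2 (0.94), Cstf2 (0.94), C2cd5 (0.93) and Ezh2 (0.93), the last of which encodes the H3K27 methyltransferase of Polycomb repressive complex 2.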

How the data were processed

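Memory CD4+ T cell RNA from 16 samples, 4 a group, was sequenced by the authors as stranded libraries of polyA RNA. Per the labels and the study's methods, the authors aligned the reads with STAR to GRCm39 and quantified genes with Salmon. The authors deposited estimated counts without normalization, of which 11.6% were fractional, and TPM, which correct for depth and transcript length. Samples were grouped by the titles and genotype labels. A treatment label and a growth protocol that describe transferred Treg do not match sorted memory cells and were not used.

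The members and gene lists were chosen with earlier results of these data known. Estimated counts were rounded and tested with R 4.3.3 and edgeR 4.0.16 (TMM, filterByExpr with a minimum count of 10, glmQLFTest, Benjamini-Hochberg adjustment over all genes tested, called at an adjusted p under 0.05). HP1α KO and HP1γ KO were each tested against WT littermates of the same line, an interaction over all samples tested the difference between the KO effects, and the 2 groups of WT were tested against each other. The scripts were tested on simulated data. TPM of single genes was compared by two-sided exact permutation tests. CPM used TMM library sizes. Named genes were the 3 members, the 5 genes most correlated with each (log2 CPM with a prior count of 2), the nearest protein-coding gene on each side, and, of each list, the members called or with the smallest p in each knockout. Suv39h1, Suv39h2, Trim28, Mcm2, Mcm3, Mcm4, Ccnb1 and Bub1 were also named, chosen after their values were seen. Some genes that this rule names are not reported here. Samples of a group differed from each other beyond counting noise, and none was counted as a duplicate.

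Coding sequences were taken from GENCODE annotation of GRCm39, another release than that used in counting, and aligned with mafft 7.526. Near-identical copies were searched with blastn 2.17.0. Alternatives were DESeq2 1.42.0, limma 3.58.1 on log2(TPM + 1) or log2(TPM + 0.1), another normalization, other filters, a robust fit, a replicate block, a fold threshold, a joint fit and leaving out each sample. Length-scaled counts, DESeq2 with a replicate block and counts per TPM were chosen after seeing the data. Total counts ran from 26694045 to 40199637, so that each isoform gene had at least 428 counts in every sample.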

Additional observations from a re-analysis of the deposited data

Results flagged for a closer look

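Of 52 groups of 4 sample values examined (TPM, CPM, the summed TPM, counts per TPM and shares of the HP1 isoform genes), 6 held a sample that stood apart from the other 3 by Dixon's criterion at the 95% level. Chance gives such a gap in about 1 in 20 groups, and several of these measures share the same values. Cbx1 in HP1α KO replicate 3 was at 22.3 TPM, below the other 3 samples at 29.5 to 30.7 TPM. Cbx5 in WT replicate 2 of the HP1α line was at 13.4 TPM, above the others at 8.42 to 8.89 TPM. This sample raised the WT mean that the HP1α KO samples were compared with. The summed TPM in WT replicate 2 of the HP1γ line was 114, above the others at 105.7 to 106.9.

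The other 3 concerned ratios. Counts per TPM of Cbx3, relative to the median gene, were 0.868 in HP1α KO replicate 3 and 0.812 to 0.819 in the other HP1α KO samples. Counts per TPM of Cbx5 were 3.19 in HP1α KO replicate 4 and 4.27 to 4.48 in the others. The same sample had Cbx5 at 6.09% of the summed HP1 TPM, beside 4.38% to 4.49% in the others. The cause of these values was not tested.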

How the results depend on the processing

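Over 12 alternatives a gene (11 for the comparison of KO effects) besides leaving out samples, no log2 fold change of an isoform gene changed sign. Cbx3 was called in HP1γ KO in each of them. Calls differed from those reported in 5 cases. DESeq2 with the replicate number as a block, an alternative added once the data had been seen, called Cbx5 in HP1α KO (-0.55, adjusted p = 0.0143) and in HP1γ KO (-0.31, adjusted p = 0.0329), where adjusted p over the alternatives reached 0.996 and 0.797. The difference in the KO effect on Cbx3 was called by DESeq2 without the block (0.69) and with it (0.68). Cbx1 between the WT groups was not called by limma on log2(TPM + 1) without a filter (0.38, adjusted p = 0.0888). The causes were not tested.

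The number of genes called in HP1α KO against WT was 5 with DESeq2, 1 without a filter, 1 with a robust fit, 3 with each limma setting and 17 with DESeq2 and the block. In HP1γ KO against WT it was 253 with DESeq2, 31 with at least 10 counts in every sample, 17 and 20 with limma at pseudocounts 1 and 0.1, 12 with limma without a filter, 96 in 1 fit of all 16 samples and 447 with DESeq2 and the block, against 49. For the difference between the KO effects it was 79 with DESeq2, 14 without a filter, 4, 3 and 5 with the limma settings in the same order, 5 with length-scaled counts, 132 with DESeq2 and the block, and 5 with the fold threshold, against 8. Between the WT groups it was 1135, 1143 and 551 with limma and 282 with the fold threshold, against 1896.

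With each sample left out in turn, Cbx1 ranged from -0.138 to 0.0141 in HP1α KO, from -0.18 to 0.0027 in HP1γ KO and from -0.0642 to 0.131 for the difference, and changed sign in each. Cbx5 in HP1α KO ranged from -0.65 to -0.40, and Cbx3 from -0.21 to -0.0093, the smaller change of each without WT replicate 2. Cbx3 ranged from 0.62 to 0.82 for the difference, and was called without HP1α-line WT replicate 2, and from -0.0631 to 0.134 between the WT groups, where the sign changed without that sample. Cbx1 between the WT groups ranged from 0.34 to 0.48 and was not called without HP1α-line WT replicate 1 or 4 or HP1γ-line WT replicate 1 or 2. Genes called ranged from 0 to 3 in HP1α KO (3 without WT replicate 3 and 1 without WT replicate 4), from 30 to 49 in HP1γ KO (30 without HP1γ KO replicate 1 and 32 without replicate 2) and from 573 to 2185 between the WT groups (573 without HP1α-line WT replicate 1, 1101 without 2 and 1040 without 4, 613 without HP1γ-line WT replicate 1 and 626 without 2).

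Same-numbered samples were not taken as pairs. Their deviations from the group means correlated at 0.0806 to 0.271 in the HP1α line, at -0.0064 to 0.186 in the HP1γ line and below 0 between the WT groups. In the HP1α line, 4 of 8 samples correlated best with their own number, and 2 of 8 did in the HP1γ line and 0 of 8 between the WT groups. With the replicate number as a block in edgeR, 0 genes were called in HP1α KO, 60 in HP1γ KO, 6 for the difference and 577 between the WT groups. No call of an isoform gene changed, but the SE of all 3 genes was smaller with the block in both knockouts. For Cbx5 in HP1γ KO the SE was 0.061 with the block and 0.147 without. Its unadjusted p was 0.00133 with the block (adjusted p = 0.121) and 0.0727 without, both with edgeR.

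In CPM, which do not correct for length, Cbx5 made up 19.9% to 26.8% of the 3 genes in group means in place of 4.85% to 8.90% in TPM. Each of the 3 genes had at least 428 counts in every sample, so that no value rests on a count near 0.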
